A study of Prunus persica with 20 samples.

Results

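Young fruit of the commercial nectarine Sunraycer was compared with young fruit of the peach TN11, the accessions that stand at the homozygous ends of the G genotype. Sunraycer is stated as gg and TN11 as GG, and the libraries were taken by their labels, 5 of Sunraycer and 5 of TN11, 10 of the 20 samples in the series. All fruit was collected at fruit set, and mRNA was counted per gene. The other accessions, used here only for their levels beside the comparison, were the peach TN7 (Gg, 4 libraries) and the nectarine MN (Gg, 5 libraries), which arose as a mutant from a peach. The gg and GG genotypes are each carried by a single accession, so an effect of G cannot be told apart from the other differences between the cultivars. The labels do not say whether the libraries of an accession came from separate trees, and p-values measure the spread between these libraries, which may be technical.

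A peach is covered by trichomes, hairs that grow out of single cells of the fruit skin, and a nectarine is not. In plants such hairs are switched on by MYB transcription factors that act in epidermal cells together with other regulators, and wall-building, cuticle and wax genes are active as the hair extends. The G locus of peach holds an R2R3 MYB gene, Prupe.5G196100.v2.1 in the present annotation and PpeMYB25 in published work, and the recessive g allele first described in nectarines carries a transposable element inside it. The count table gives the genes by identifier only. The RefSeq gene table used here shares no identifier with it (0 joined), so apart from this MYB gene no gene is given a name or a role, pathway and tissue marker lists could not be made, and the labelled tissue could not be checked against markers. In an identifier such as Prupe.5G196100.v2.1 the digit before G is the chromosome, and the digits after it rise along the chromosome.

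Library totals lay between 14890206 and 24474843 counts in Sunraycer and between 18895521 and 23091696 in TN11. The 5 TN11 libraries resembled each other more than the 5 Sunraycer libraries. Correlations of log2 CPM (counts scaled to a common library size by TMM factors) across genes were 0.967 to 0.992 in TN11. In Sunraycer they were 0.907 to 0.979. The 0.992 came from TN11 4 and TN11 5, and no other TN11 pair exceeded 0.980. Sunraycer pairs without Sunraycer 1 had 0.949 to 0.979. Sunraycer 1 stood apart most, with a mean correlation of 0.927 to the rest of its accession. Its 100 most abundant genes took 19.7% of its counts. That share was 16.3% to 18.3% in the other Sunraycer libraries and 14.0% to 14.9% in TN11 libraries. The main direction along which libraries of the same accession differ, 39.7% of the variance within accessions and called the axis here, also separated the accessions. Axis scores, in SDs within accessions, were 0.54 to 3.85 in Sunraycer and −0.77 to 0.75 in TN11. The mean difference of 1.78 gave p = 0.0159 in an exact two-sided permutation test over 5 against 5 libraries, and the ranges met, since TN11 2 scored above Sunraycer 3.

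**Figure D1:**
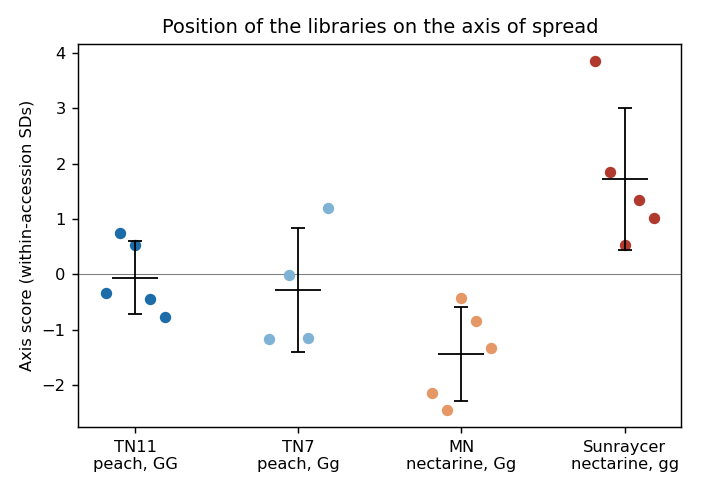
Axis score of each library (vertical axis, in SDs within accessions) by accession, with the mean and SD in black. Sunraycer libraries lie from 0.54 to 3.85 with Sunraycer 1 at the top, TN11 libraries from −0.77 to 0.75 and TN7 libraries from −1.17 to 1.19, so both peaches reach above the lowest Sunraycer library, and MN libraries lie at −0.42 or lower.

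Expression of the MYB gene of the G locus was low in every Sunraycer library and high in every TN11 library. Its level was 1.43, 1.85, 3.07, 4.96 and 0.847 CPM in Sunraycer 1, 2, 3, 4 and 10. In TN11 it was 57.1, 33.8, 41.4, 44.0 and 47.0 CPM in libraries 1 to 5. The groups were far apart, and the highest Sunraycer library reached 4.96 CPM where the lowest TN11 library had 33.8. On average Sunraycer held 5.44% of the TN11 level, a log2 fold change of −4.19 (SE 0.35, 95% interval −4.92 to −3.46, edgeR adjusted p = 6.38e-08). The transcript was still counted in each Sunraycer library, 216 times over the 5, and Sunraycer 4 had the most and Sunraycer 10 the least. TN7 lay between, at 14.3 to 18.9 CPM, and MN at 2.24 to 4.27 CPM. By fitted fold it ranked 205 among the 19360 tested genes, counted from the gene that was lowest in Sunraycer. In bulk fruit, fewer cells that express a gene and less transcript per cell cannot be told apart.

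**Figure D2:**
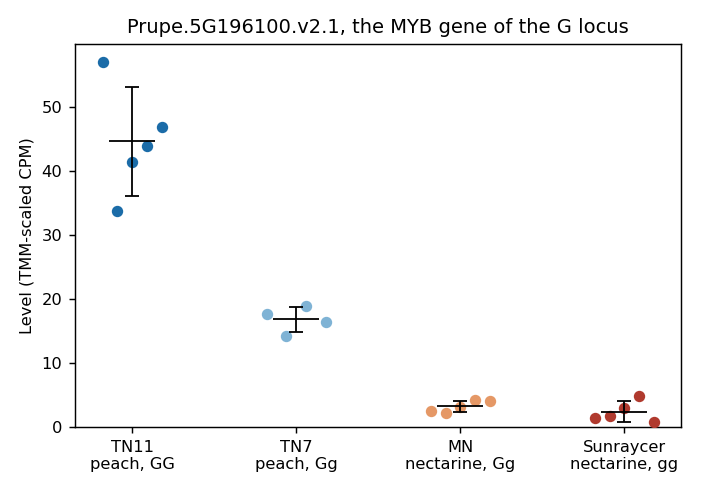
Level of Prupe.5G196100.v2.1 in each library (vertical axis, TMM-scaled CPM) by accession, with the mean and SD in black. The 5 TN11 libraries lie between 33.8 and 57.1 CPM and the 5 Sunraycer libraries between 0.847 and 4.96 CPM.

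Among the 20 tested genes on each side of it, 4 were called higher and 2 lower. These 6 of 40 (15%) lie near the 18.3% called among all tested genes, and the neighbours' median log2 fold change was −0.05.

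Across the genome the nectarine differed from the peach in both directions by similar numbers of genes. A gene was called at an adjusted p below 0.05 (Benjamini-Hochberg over 19360 tested genes) and a difference of at least 2-fold, and 3550 genes or 18.3% were called. Of these, 1907 (9.85%) were higher and 1643 (8.49%) lower in Sunraycer. The median fitted fold was 3.51 among the higher and 3.08 among the lower genes, and 3.50 and 3.08 when the 27 and 43 genes with no count in one of the accessions were set to the lowest fold that 3 counts over that accession would allow. Adding the axis score to the model left 2265 calls, of which 904 were higher and 1361 lower, so the split between directions turned. In all 5 libraries of Sunraycer 2413 genes (12.5%) lay above all TN11 libraries and 2607 (13.5%) below all of them. Among the called genes 1320 of the 1907 higher and 1339 of the 1643 lower had libraries that did not overlap.

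For most genes the data also bounded the difference. The 95% interval of the log2 fold change lay wholly within 2-fold for 11120 genes, 57.4% of those tested. For 4690 genes that were not called, the interval reached 2-fold or beyond, and they are undecided at this depth and spread. The median standard error was 0.20 on the log2 scale.

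**Figure D3:**
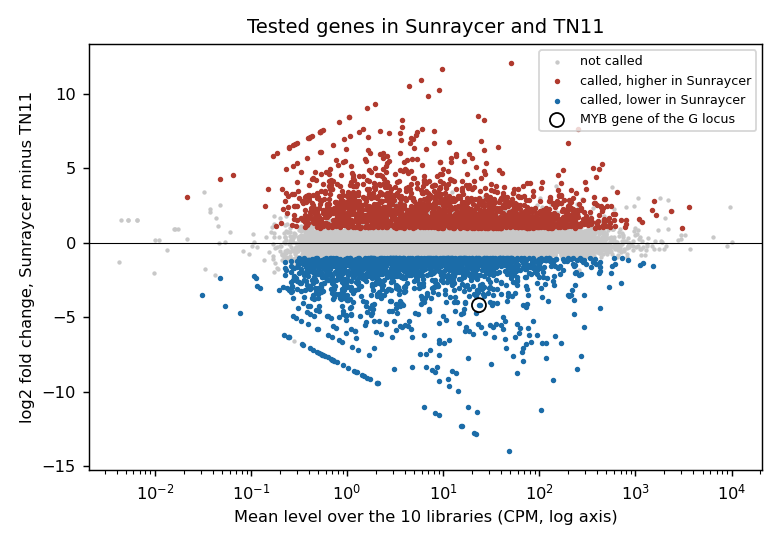
Log2 fold change, Sunraycer minus TN11 (vertical axis), against the mean CPM over the 10 libraries (horizontal log axis) for the 19360 tested genes, with 1907 called higher in red and 1643 called lower in blue. Fitted values span −13.95 to 12.03; the oblique rows of points are genes with no count in an accession, whose fitted fold depends on the prior count, so the extremes on the 2 sides cannot be ranked.

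The directions differed in the size of the change. Among the higher genes 1074 lay between 2 and 4-fold and 99 beyond 32-fold, and among the lower genes 1008 and 149. With genes that had no count in an accession set to their bound, 88 higher and 138 lower genes were beyond 32-fold. Lower genes beyond 4-fold were called in nearly every case in either fit. Of the 280 lower genes between 4 and 8-fold, 278 were also called without Sunraycer 1 and 265 with the axis score in the model. All 149 beyond 32-fold were called in both fits. Beyond 4-fold, higher genes depended more on the fit. Of the 463 between 4 and 8-fold, 369 were called without Sunraycer 1 and 209 with the axis score, and of the 99 beyond 32-fold, 89 and 99. Between 2 and 4-fold, 271 of 1074 higher and 508 of 1008 lower genes were also called with the axis score. Without Sunraycer 1 this class showed no such gap, with 749 higher (69.7%) and 667 lower genes (66.2%) called. The classes were formed by fold in the same libraries, so these calls are no separate support. Median Sunraycer levels were 0.957, 0.352 and 0.0493 CPM in the lower classes beyond 4-fold. In the higher classes beyond 4-fold they were 12.9, 6.31 and 5.10 CPM. Whether these levels made the difference between directions was not tested.

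**Figure D4:**
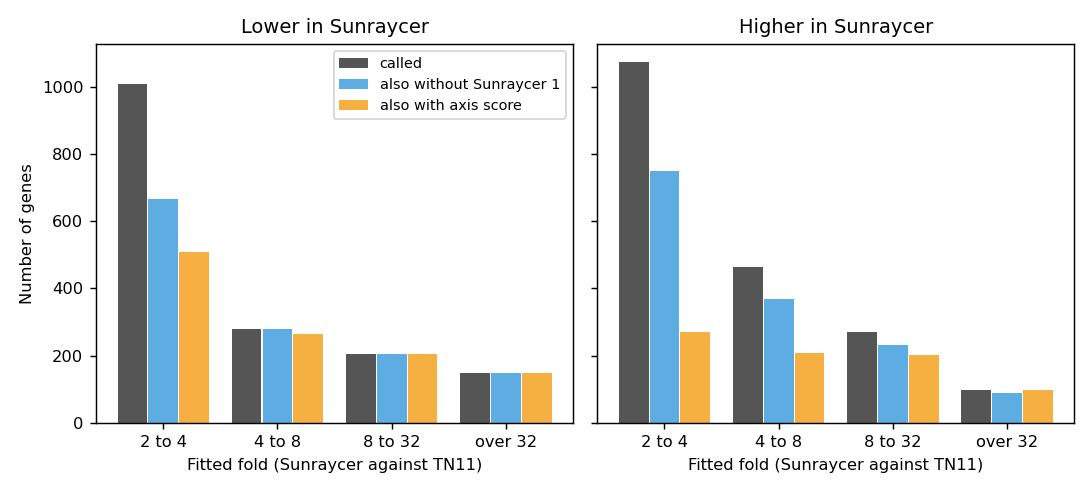
Number of genes called (vertical axis) by class of fitted fold (horizontal axis), lower in Sunraycer on the left and higher on the right, with those also called without Sunraycer 1 (blue) and with the axis score in the model (orange). Beyond 4-fold nearly all lower genes are called in the 3 fits, while 209 of 463 higher genes between 4 and 8-fold are called with the axis score. The classes were formed in the same libraries, so the repeated calls are no separate support.

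Expression level also separated the directions. Among genes with a mean between 1 and 5 CPM over the 10 libraries, 14.4% were higher and 16.3% lower in Sunraycer. Between 10 and 50 CPM the shares were 7.34% and 5.43%. Among the 2309 genes between 100 and 500 CPM, 216 were higher and 85 lower, 9.35% and 3.68%. Genes under 1 CPM were more often lower, at 15.3% higher and 21.5% lower. The filter on low counts works by accession and can keep a low gene that is expressed in a single accession. The shares called at low levels may therefore partly reflect the filter. Without it 2367 higher and 1802 lower genes were called over all levels. The surplus of higher genes at high levels depended on the fit: between 100 and 500 CPM, 149 higher and 65 lower genes were called without Sunraycer 1, but 61 higher and 71 lower with the axis score in the model.

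The genes that were lowest in Sunraycer had few or no counts there and were expressed in every TN11 library. Prupe.3G210300.v2.1 had no count in any Sunraycer library and 87.0, 98.9, 87.1, 92.1 and 117 CPM in TN11 1 to 5, at least 2801-fold lower in the nectarine against 3 counts over the accession (edgeR adjusted p = 6.34e-10). Prupe.1G007400.v2.1 also had no count in Sunraycer and 33.9, 52.5, 42.1, 43.5 and 47.6 CPM in TN11, at least 1276-fold lower (edgeR adjusted p = 7.56e-10). They differed in the other peach: TN7 had 71.2 to 108 CPM of the first and a mean of 6.57 CPM of the second. The 8 genes with the largest negative fold had means of 16.4 to 96.4 CPM in TN11 and at most 0.0136 CPM in Sunraycer, and in 7 of the 8 MN was also called lower than TN7, a call made for 7.59% of all tested genes.

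Some abundant genes were nearly absent from Sunraycer as well. Among called genes with a mean of at least 50 CPM over the 10 libraries, Prupe.1G328800.v2.1 had the largest negative fold, with 0.06, 0.04, 0.07, 0.11 and 0.13 CPM in Sunraycer 1, 2, 3, 4 and 10 and 170, 301, 146, 212 and 221 CPM in TN11 1 to 5. Its log2 fold change was −11.24 (SE 0.38, edgeR adjusted p = 2.02e-12). Prupe.6G238300.v2.1 followed, with 0.13 to 0.85 CPM in Sunraycer and 149 to 380 CPM in TN11 (log2 −9.20, SE 0.44, edgeR adjusted p = 7.28e-11). In both genes TN11 2 was highest and TN11 3 lowest. The 6 genes of this kind had TN11 means of 118 to 489 CPM and Sunraycer means of 0.083 to 1.36 CPM, and MN was called lower than TN7 in 6 of 6, again beside 7.59% of all tested genes.

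A set of 64 genes had at least 10 CPM in TN11 and under 2% of that level in Sunraycer, a limit chosen after the values were seen. Their summed level was 5679, 8061, 3893, 6059 and 6524 CPM in TN11 1 to 5 and 49.3, 50.2, 53.9, 45.3 and 38.2 CPM in Sunraycer 1, 2, 3, 4 and 10. These values chose the genes and are a description. The other accessions had no part in the choice. TN7 had 3349 to 6580 CPM and MN 99 to 133 CPM, so the peaches and the nectarines stood far apart. Of the 64 genes, 47 were under 2% of the TN11 level in MN and 3 in TN7, and 53 were above 50% of it in TN7 and 3 in MN. These shares were not computed over all tested genes, so the 53 in TN7 need not be particular to this set. All 64 were called in the fits without Sunraycer 1 and with the axis score, but they were chosen for a large difference in these same libraries, so the calls are no separate support.

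The mirror set, with at least 10 CPM in Sunraycer and under 2% of that in TN11, held 25 genes and looked different. Its summed level ranged from 703 to 3828 CPM in Sunraycer, where Sunraycer 4 alone exceeded 1720 CPM, and from 6.51 to 15.3 CPM in TN11. MN had 279 to 347 CPM and TN7 298 to 391 CPM, so the second nectarine and the second peach were alike. Prupe.2G107700.v2.1 supplied most of the level in both, with means of 252 CPM in MN and 258 CPM in TN7. In MN 13 and in TN7 16 of the 25 genes were under 2% of the Sunraycer level. The median coefficient of variation over the Sunraycer libraries was 83.9%, against 26% over the TN11 libraries in the set of 64. Neither these shares nor the coefficients were computed over all tested genes. Sunraycer libraries also resembled each other less across genes, so the gap in coefficients need not be particular to these sets.

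**Figure D5:**
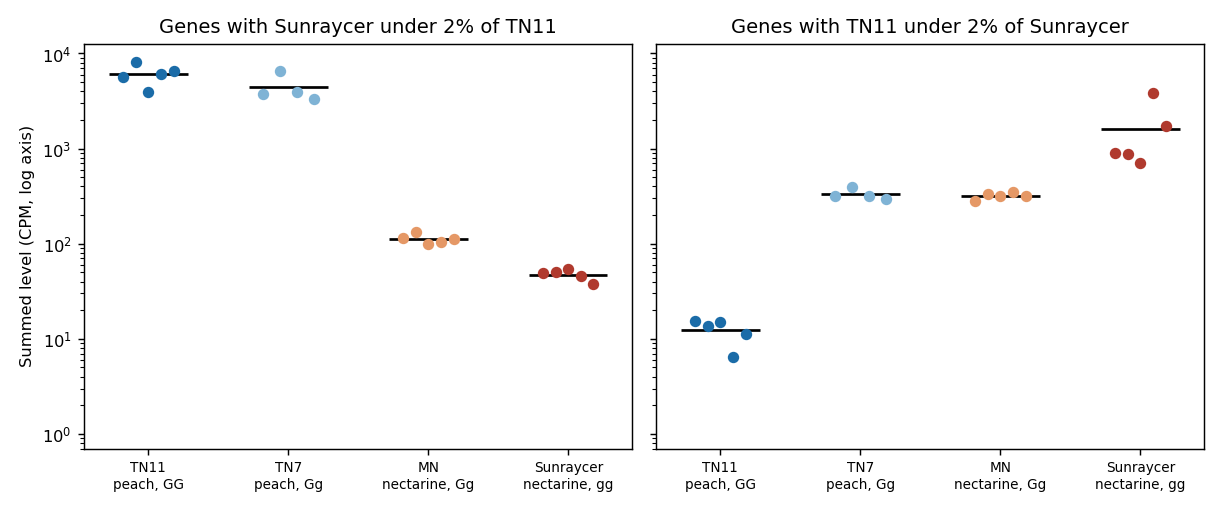
Summed level in each library (vertical log axis, CPM) of the 64 genes with Sunraycer under 2% of TN11 (left) and the 25 genes with TN11 under 2% of Sunraycer (right), by accession, with means as lines. On the left MN lies near Sunraycer, at 99 to 133 CPM, and TN7 near TN11; on the right MN and TN7 lie together between 279 and 391 CPM.

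The tie between the size of the fall in Sunraycer and the difference between the remaining accessions held through all classes of fold. MN minus TN7 shares no library with Sunraycer minus TN11, and over all tested genes it gave 7.59% lower and 2.73% higher calls. Of the genes lower in Sunraycer by 2 to 4-fold, 200 of 1008 (19.8%) were also called lower in MN than in TN7. The share was 53.6% between 4 and 8-fold, 74.3% between 8 and 32-fold and 83.2% (124 of 149) beyond 32-fold. The median MN minus TN7 value went from −0.32 to −1.18, −2.77 and −5.35 on the log2 scale through these classes, beside −0.02 over all tested genes. Of the genes higher in Sunraycer, 62 of 1074 (5.77%) between 2 and 4-fold and 26 of 99 (26.3%) beyond 32-fold were called higher in MN than in TN7. The opposite call was made for 111 (10.3%) and 10 (10.1%) of them, and over all 1907 higher genes MN was called lower than TN7 in 173 and higher in 147. Their median MN minus TN7 values were −0.35 and 0.12. The folds compare Sunraycer with TN11, but the calls share an estimate of spread with the MN and TN7 libraries.

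Genes with counts in just one of these accessions were more numerous on the side of the peach. There were 35 genes with no count in Sunraycer and at least 10 counts in every TN11 library, and 7 genes with the reverse (11 without Sunraycer 1). Sequencing depth differed in the same direction. Library totals averaged 18887500 counts in Sunraycer and 21472000 in TN11, and the lowest were 14890206 and 18895521. At equal expression a Sunraycer library therefore more easily has no count and less easily reaches 10. How much of the gap between 35 and 7 comes from depth was not tested. The 35 lay on all 8 chromosomes, with TN11 means from 0.679 to 96.4 CPM, and 17 of them had no count in MN either. In TN7 20 of the 35 had at least 10 counts in every library and 2 had no count. Prupe.1G296700.v2.1 is a gene of TN11 alone among these 4 accessions, with 12.9, 13.5, 10.75, 13.0 and 12.5 CPM in TN11 1 to 5 and no count elsewhere. For 2 of the 7 reverse genes, Prupe.6G049400.v2.1 and Prupe.4G046500.v2.1, counts were found in Sunraycer alone. The first had 6.87 to 15.8 CPM and the second 6.38 to 10.5 CPM in Sunraycer libraries, and their folds over TN11 were at least 423 and at least 321. Why a gene had no counts was not tested.

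The largest positive folds belonged to genes with 3 counts or fewer in TN11. Among them was Prupe.2G107700.v2.1, with 57.9, 107, 138, 123 and 84.7 CPM in Sunraycer 1, 2, 3, 4 and 10 and 2 counts in all of TN11. The ratio was 5552 with a counting interval of 1537 to 45847 (edgeR adjusted p = 2.02e-12). Here TN11 was the accession apart. Prupe.4G284300.v2.1 was another of them, with 20.4, 25.5, 24.9, 15.2 and 10.7 CPM in Sunraycer against no TN11 count, a fold of at least 701 (edgeR adjusted p = 9.27e-09). TN7 and MN had 0.0626 and 0.383 CPM of it on average. The 8 genes with the largest positive fold had Sunraycer means of 3.20 to 102 CPM. Their coefficients of variation in Sunraycer ran from 6.35% to 83.9%.

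Abundant genes higher in Sunraycer varied widely between its libraries. Prupe.4G099500.v2.1 had 225, 41, 78.1, 1424 and 775 CPM in Sunraycer 1, 2, 3, 4 and 10, and 3.95, 5.55, 2.04, 0.21 and 1.14 CPM in TN11 1 to 5 (log2 7.62, SE 1.23, edgeR adjusted p = 1.37e-04; 6.76 without Sunraycer 4). Prupe.5G139300.v2.1 had 139, 132, 191, 1437 and 64.9 CPM in Sunraycer and 2.23 to 6.39 CPM in TN11 (log2 6.71, SE 0.98, edgeR adjusted p = 5.02e-05; 5.14 without Sunraycer 4). The groups did not overlap in either gene, but Sunraycer 4 was the highest library in both. The 6 abundant genes with the largest positive fold had coefficients of variation of 31.1% to 149% in Sunraycer, where the 6 with the largest negative fold had 6.06% to 34.5% in TN11. Coefficients over all tested genes were not computed, so the gap may belong to the accessions and need not be particular to these genes. All 12 were called without Sunraycer 1 and with the axis score, but they were chosen among called genes for their large folds in the same libraries.

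A slope along the axis was fitted for each gene within the MN and TN7 libraries, with the axis itself taken from those 9 libraries and its sign set so that Sunraycer scored above TN11. That choice of sign favours positive slopes among genes higher in Sunraycer, so the shares are a description. Of the 1907 higher genes 82.5% had a positive slope, with a median of 0.37 log2 units per SD of the score, against 49.6% and −0.000985 over all tested genes. Of the 1643 lower genes 38.8% had a positive slope, with a median of −0.05. Among genes beyond 32-fold the shares were closer, 63.6% of the higher and 44.3% of the lower. On this axis the Sunraycer libraries scored 0.76 to 2.64 and the TN11 libraries −0.64 to 0.66, without overlap (exact two-sided permutation p = 0.00794, the smallest that 5 against 5 libraries can give). The part of the axis in the calls was not tested.

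Single libraries marked the edges of the called genes. Sunraycer 1 was the highest Sunraycer library in 1076 of the 1907 higher genes (56.4%) and the lowest in 835 of the 1485 lower genes that had a single lowest library (56.2%). Without it 2870 genes were called, 1507 higher and 1363 lower. Among TN11 libraries, TN11 5 was lowest in 731 of the 1802 higher genes with a single lowest library and TN11 2 highest in 501 of the 1643 lower genes. The same shares over all tested genes were not computed, so these need not be particular to the called genes.

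The most abundant transcripts of the fruit were partly shared. The summed means of the 10 most abundant genes came to 6.75% of the nominal CPM total in Sunraycer and 4.54% in TN11. TMM-scaled levels do not add up to that total, with mean TMM factors of 0.925 in Sunraycer and 1.01 in TN11, so these are not shares of counts. Of the genes, 5 were in both lists. Of the 15 genes in either list, 3 (20%) were called, near the 18.3% of all tested genes, and all 3 were higher in Sunraycer. Without Sunraycer 1 a single one of the 3 was called, and 0 of the 3 with the axis score in the model. Prupe.3G012400.v2.1 was the most abundant in Sunraycer, with 25928, 15512, 8547, 16728 and 13747 CPM in libraries 1, 2, 3, 4 and 10, and 2716, 3489, 7878, 623 and 424 CPM in TN11 1 to 5. Its groups did not overlap, but the spread within TN11 was wide and it missed the threshold (log2 2.41, SE 0.97, edgeR adjusted p = 0.0523). Prupe.3G012200.v2.1, near it on chromosome 3, had 3498 to 10153 CPM in Sunraycer and 239 to 2677 CPM in TN11 and was called (log2 2.40, SE 0.87, edgeR adjusted p = 0.0343). Its call was lost without Sunraycer 1 (log2 2.18, edgeR adjusted p = 0.0666) and with the axis score in the model (log2 0.57, edgeR adjusted p = 0.479). In both genes TN11 3 was the highest and TN11 5 the lowest peach library.

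The called genes were spread over the whole genome. The share called was 17.3% to 20.4% on each of the 8 chromosomes, highest on chromosome 4, where 12.0% of tested genes were higher and 8.35% lower. On chromosome 5, which carries the G locus, 9.21% were higher and 9.32% lower. In windows of 40 tested genes the median share called was 17.5%. The fullest window, on chromosome 1 from Prupe.1G436900.v2.1 to Prupe.1G442500.v2.1, had 20 of 40, 12 higher and 8 lower.

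Some neighbours were called in the same direction. There were 31 runs of at least 4 tested genes in a row called alike, 19 higher with 83 genes and 12 lower with 55 genes. How many such runs would arise from the shares called alone, 9.85% higher and 8.49% lower, was not computed. Every gene of the run was also called in 12 higher and 6 lower runs without Sunraycer 1, and in 4 higher and 4 lower runs with the axis score in the model. A run on chromosome 6 held 4 lower genes, from Prupe.6G099000.v2.1 to Prupe.6G099400.v2.1, that were called in both of these fits. Prupe.6G099000.v2.1 and Prupe.6G099200.v2.1 had no Sunraycer count, and TN11 exceeded Sunraycer at least 118-fold in the first and at least 28.6-fold in the second. Prupe.6G099300.v2.1 had 2 Sunraycer counts, and TN11 exceeded Sunraycer by a ratio of 1254 with a counting interval of 347 to 10355. Prupe.6G099400.v2.1 had 119, 145, 60.6, 93.8 and 115 CPM in TN11 1 to 5 and 0.065 to 0.949 CPM in Sunraycer. On chromosome 5 a run of 5 genes, from Prupe.5G011800.v2.1 to Prupe.5G012700.v2.1, was higher in Sunraycer. With the axis score in the model 4 of the 5 were called, and Prupe.5G012500.v2.1 went from log2 1.53 to 0.51 (edgeR adjusted p = 0.223). In this run Prupe.5G012100.v2.1 had 17.0, 18.6, 19.0, 19.2 and 16.8 CPM in Sunraycer and a single count in TN11, in TN11 4, and means of 10.4 CPM in MN and 8.81 CPM in TN7. Its ratio of 1970 has a counting interval of 354 to 77820. The longest run had 7 genes higher in Sunraycer, from Prupe.4G027600.v2.1 to Prupe.4G028600.v2.1, with log2 fold changes of 1.13 to 2.92, of which 5 were called without Sunraycer 1 and 1 with the axis score in the model. How reads of near-identical neighbours were divided is not given in the sources used here, so levels within such runs are uncertain.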

How the data were processed

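The table deposited by the authors holds whole-number counts per gene for 19 libraries, without normalization (0 values were not whole, 0 columns were unmatched); replicate 4 of TN7 was not analysed here. The submitters' processing notes list Bowtie2 2.5.1, RSEM 1.2.31, R 4.1.1 and DESeq2 without saying what each did, so the counts may be rounded estimates. Build, strand setting and filtering of reads: not given in the sources used here. Per the labels' protocols, libraries came from a stranded mRNA kit. Levels of close copies and antisense genes are uncertain.

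Of 26811 genes, filterByExpr kept 19360. Counts were scaled by TMM and fitted in edgeR 4.0.16 (glmQLFit, glmQLFTest) with a mean per accession over all 19 libraries; the standard error is the log2 fold change divided by the square root of F. Values are CPM. With 3 or fewer counts in an accession, folds are bounds or exact Poisson intervals, which cover counting error only. The axis is the first principal component of log2 CPM deviations (prior count 2) from accession means. Other tools were SciPy 1.17.1 in Python 3.11.15, and DESeq2 1.42.0 and limma 3.58.1 in R 4.3.3. On simulated counts, with 200 changed among 19157 tested genes, 90% of 4-fold and 33% of 2-fold changes of Sunraycer minus TN11 were called, with 5 unchanged genes. The simulation drew each gene independently, without the axis, so it does not give the rate of false calls in these data.

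The comparison and rules were chosen with earlier results of these data known. Named by rule were the MYB gene, the 8 largest folds in each direction and the 6 largest with a mean of at least 50 CPM over the 10 libraries, ranked by fitted fold, which depends on the prior count where an accession has few or no counts; the text prints the first of each and gives the rest as ranges. The planned gene lists needed product names and could not be made. Prupe.1G296700.v2.1, Prupe.3G012400.v2.1, Prupe.3G012200.v2.1, Prupe.6G099400.v2.1 and the windows, runs and sets under 2% were chosen after their values were seen. Within Sunraycer and within TN11 no libraries were duplicates. Chi-square divided by its degrees of freedom was at least 7.13, over genes with at least 10 counts, and was lowest for TN11 4 and TN11 5. Pairs of MN or TN7 libraries and pairs between accessions were not checked. Alternatives were other scaling, filters, tools, call rules, libraries, a replicate block and the axis score; calls by level, in runs and among abundant genes were repeated with the axis score and without Sunraycer 1 after the data were seen.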

Additional observations from a re-analysis of the deposited data

Results flagged for a closer look

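In 38 groups of 5 libraries checked (gene levels and library measures), single libraries far from the other 4 of their accession were found in 2 genes. Chance gives about 1 in 20 such groups where values are normally distributed, which these levels need not be. No cause was tested. Prupe.5G139300.v2.1 had 1437 CPM in Sunraycer 4, against 64.9 to 191 CPM in the other Sunraycer libraries. Prupe.5G012100.v2.1 had 0.0428 CPM in TN11 4, which is its single count, and none in the other TN11 libraries. A single count beside libraries with none is always flagged, so the rate of 1 in 20 does not apply to it.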

How the results depend on the processing

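The MYB gene was called lower in all 21 alternative fits, with log2 values from −4.63 to −3.95 and adjusted p up to 4.59e-05 over edgeR, limma-voom and DESeq2. The other 27 genes named by rule were called in the same direction wherever they could be fitted. They were chosen for the largest folds in these libraries, so this is no separate support.

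Counts of called genes moved by more than 1.5 times in few settings. glmTreat against 2-fold gave 1359 genes (608 higher, 751 lower). Adjusted p with no minimum fold gave 8332 (4182 higher, 4150 lower). The axis score as a covariate gave 2265 (904 higher, 1361 lower), and 2148 (794 higher, 1354 lower) with the axis from MN and TN7 alone. The share of higher genes, 53.7%, was 57.4% with DESeq2 size factors and 50.3% with upper-quartile factors. With limma-voom it was 49.2% (1870 higher, 1928 lower), so lower genes were then the more numerous. Leaving out a library gave 2870 to 3999 called genes, 1507 to 2182 higher and 1363 to 1817 lower.

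A fit with a replicate block called 3596 genes, 1708 higher and 1888 lower. Same-numbered Sunraycer and TN11 libraries deviated with correlations of −0.27 to 0.03 across genes, within the −0.46 to 0.48 of differently numbered ones. No pairing by number was seen, but so few pairs that share a main axis cannot exclude it. Sunraycer 10 shares its number with no library and drops out of that fit.

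Genes with no count in Sunraycer numbered 103 at a minimum of 1 count in every TN11 library and 13 at 50, and 35 to 44 when libraries were left out. Those with no count in TN11 numbered 48 and 3, and 7 to 11. The highest, 11, came without Sunraycer 1. The mirror set of 25 genes held 16 at a limit of 1% and 50 at 5%. The axis difference was 1.24 to 2.07 when libraries were left out. Of simulated 2-fold changes 33% were called, where the call rule itself asks for a fitted difference of at least 2-fold and so limits this share at any depth.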
